A study of Saccharomyces cerevisiae with 8 samples.

Results

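BSGX001 is a haploid strain of the yeast Saccharomyces cerevisiae that was engineered and evolved to ferment xylose, and the comparison described here sets its cells fermenting xylose after glucose against its cells fermenting xylose alone. The comparison rests on 4 of the 8 RNA-seq libraries of the series, 2 fermentations a side, chosen by strain and stage from the sample labels. In the X stage (xylose only) the medium held 20 g/L xylose and cells were taken at 12 h. In the GX stage (glucose, then xylose) the medium held glucose and xylose at 20 g/L each, and cells were taken at 14 h, when the glucose had been used up. All 4 libraries share one genotype in the CEN.PK 113-5D background: a xylose isomerase of rumen origin (Ru-XI), overexpressed xylulokinase, pentose phosphate pathway genes at the GRE3 locus and a deletion of COX4, followed by adaptive evolution in xylose. The strain is a single evolved line, so the values describe that line. Sugar history, sampling hour and phase of growth changed together between the stages and cannot be told apart. The other 4 libraries are of the strain XH7 at the same stages and enter the same fit, where they share in the filter and the estimate of spread, and give the test of whether a change differed between the strains.

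When glucose runs out, yeast lifts the repression of genes for other carbon sources and slows its growth programme. The kinases Snf1 and PKA and the TOR complexes carry much of this signal, and transcription factors such as Cat8, Mig1 and Msn2 pass it on to promoters. Cox4 is a subunit of cytochrome c oxidase, the terminal enzyme of respiration, so a strain without it depends on fermentation. Many genes that respond to such shifts have only a systematic name, and these, with regulators, transporters, membrane traffic and chromosome genes, are the subject here.

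Totals of expected counts were 7675099 and 7214276 for the X libraries and 7458549 and 7274187 for the GX libraries, and 6076 to 6100 of 6170 genes were detected in each. The study's text also gives BSGX001 a PHO13 deletion, which its labels do not. PHO13 had 513 to 1041 counts in the 4 libraries, so the data do not show it as absent. COX4 had 0 counts in all 4 libraries, where the limit that a count of 0 allows was 0.391 to 0.416 CPM (counts relative to library size). Mating type was checked by the genes of the pheromone receptors: STE2, of a cells, had 3227 to 4459 counts per library, and STE3, of alpha cells, had 195 to 234. Of the other markers, the a-cell gene BAR1 had 1305 to 1462 counts, while the a-factor gene MFA1 had 8 to 30 and the alpha-cell agglutinin gene SAG1 had 289 to 402. The X duplicates differed more than the GX duplicates. The SD of the log2 ratio between duplicates over 5921 genes was 0.327 in X and 0.221 in GX, and the chi-square of the counts per degree of freedom was 37.62 in X and 4.1 in GX. In X, 79 genes differed by more than 2-fold between the duplicates, and 59 of these were higher in replicate 2. With 2 fermentations a group the p-values below measure the spread between these samples.

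Below, a change is the log2 ratio of the GX stage over the X stage (n = 2 per stage), from the edgeR quasi-likelihood test fitted to all 8 libraries. The ± of a change is a standard error worked back from the F statistic of that test. Its spread is thus estimated over all 8 libraries. Levels are CPM scaled by TMM. A gene rose or fell where the adjusted p was at most 0.05, and was called where it also changed at least 2-fold. Among 5921 tested genes the calls were 401 higher (6.77%) and 120 lower (2.03%), a split of 77% higher that became 60.3% under upper-quartile scaling (326 higher and 215 lower). That scaling moved the median of all genes from −0.02 to −0.13. At any fold 23% of the genes rose and 24.7% fell. Of the calls, 83 were higher and 16 lower by 4-fold or more, and 18 and 3 by 8-fold or more. The falls of those sizes numbered 35 and 22 without GX replicate 2, and the rises 137 and 36 without X replicate 2. At a mean log2 CPM of 3 or more, the largest rises were in the hydrophilin genes SIP18 (4.96 ± 0.14) and GRE1 (3.80 ± 0.14), the pyruvate decarboxylase gene PDC6 (4.01 ± 0.18) and the Hsp70 gene SSA3 (3.71 ± 0.18). These are bulk samples, in which fewer cells of a kind and less RNA per cell cannot be told apart.

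The largest gain in transcript level was in a maltose gene, although neither medium held maltose. MAL32, which encodes maltase, stood at 5876 and 4671 CPM in the X libraries and at 20152 and 19788 CPM in the GX libraries. It thus took 0.59% and 0.47% of the scaled counts in X and 2.02% and 1.98% in GX (1.92 ± 0.17, adjusted p = 5.38e-05 by edgeR). MAL32 had fractional counts, a sign of reads shared with a close copy, so its level may include that copy. The small heat shock gene HSP26 gained next most (1631 ± 1008 to 7220.0 ± 35.5 CPM), with X libraries at 919 and 2344 CPM. The maltose permease genes MAL31 (1121 ± 306 to 4633 ± 99.5 CPM, mean ± SD) and MAL11 (1567 ± 368 to 5552 ± 448 CPM) also stood among the 10 largest gains. PYC1, which encodes pyruvate carboxylase, was the last of the 10 (1158 ± 89.2 to 3429 ± 86.4 CPM). The 10 genes with the largest gains took 2.83% and 3.19% of the scaled counts in the X libraries and 7.48% and 7.28% in the GX libraries. The 10 genes with the largest losses went from 7.63% and 7.17% to 3.4% and 3.62%. The losses were led by the aldolase gene FBA1 (11787 ± 1299 to 4600 ± 167 CPM) and the glyceraldehyde-3-phosphate dehydrogenase gene TDH3 (14748 ± 325 to 8293 ± 456 CPM). TDH3 had fractional counts too. Its change of −0.83 ± 0.19 was under 2-fold and did not pass without GX replicate 1. The methionine synthase gene MET6 (4984 ± 332 to 2050.0 ± 119 CPM) was the largest loss outside sugar metabolism.

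**Figure D1:**
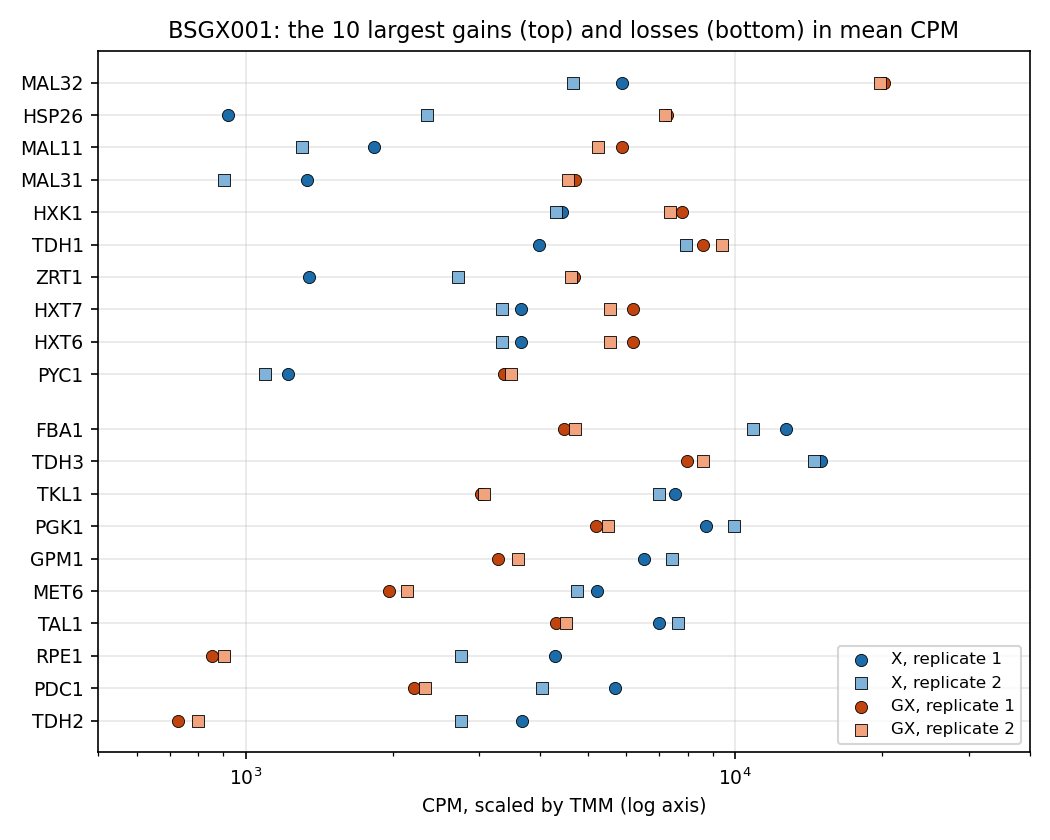
Level of the 10 genes with the largest gain (top) and the 10 with the largest loss (bottom) in mean CPM, one point per BSGX001 library, on a log axis of TMM-scaled CPM. MAL32 lies at 20152 and 19788 CPM in the GX libraries, TDH1 and HSP26 show X replicates far apart, and HXT6 and HXT7 share the same values because their reads could not be told apart.

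Many of the called genes have only a systematic name. Of 446 such genes tested, 65 (14.57%) were called higher and 5 (1.12%) lower, against 295 (5.88%) and 108 (2.15%) of 5020 named genes. Their median log2 change was 0.29 against −0.04, and their median level was 30.5 CPM against 75.2 CPM. They took 2.36% and 2.59% of the counts in the X libraries and 3.2% and 3.21% in the GX libraries. Of the 65, RefSeq gives a product other than uncharacterized protein for 10, and 44 were called in all 4 fits that left out 1 BSGX001 library. A further 455 identifiers without a RefSeq R64 entry had 41 (9.01%) called higher and 7 (1.54%) lower.

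The systematic-name genes with the largest changes were YJL218W, YHR210C and YOR186W. The product of YHR210C belongs to the aldose 1-epimerase superfamily, enzymes that interconvert the ring forms of sugars. The gene lies on chromosome VIII at 520712 to 521737 (build R64, minus strand). Its level was 13.5 and 13.8 CPM in the X libraries and 142 and 149 CPM in the GX libraries (3.42 ± 0.13, 10.7-fold, adjusted p = 6.8e-07 by edgeR). The X duplicates were nearly equal, and the change was 3.42 without X replicate 1 and 3.44 without X replicate 2. YJL218W (chromosome X 21973 to 22563), annotated as an acetyltransferase, stood at 4.41 and 8.99 CPM in X and 73.3 and 80.2 CPM in GX. Here X replicate 2 lay above X replicate 1, and the change was 3.11 without X replicate 1 and 4.12 without X replicate 2. YOR186W (chromosome XV 683111 to 683545) showed the same order of libraries, with 3.18 and 6.64 CPM in X against 46.2 and 51.0 CPM in GX. YJR115W (chromosome X 639942 to 640451) went from 9.18 and 15.4 CPM to 81.0 and 80.8 CPM, and YJR154W (chromosome X 725784 to 726824) from 20.1 and 33.2 CPM to 129 and 144 CPM. As in all 401 genes called higher, both GX libraries lay above both X libraries in these genes.

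The neighbours YNL194C and YNL195C on chromosome XIV both rose. YNL194C encodes a membrane protein of the family of Sur7, which marks fixed patches of the plasma membrane, and went from 29.9 and 32.2 CPM to 134 and 134 CPM (2.11 ± 0.11, adjusted p = 3.62e-06). YNL195C went from 36.4 and 42.6 CPM to 166 and 158 CPM (2.04 ± 0.11). FMP45, another gene of the Sur7 family, rose by 2.13 ± 0.12, whereas SUR7 itself fell by 1.83 ± 0.14, from 181 ± 35.8 to 50.9 ± 0.867 CPM. Several systematic-name genes have products with a predicted enzyme function. YHR033W, annotated as a putative glutamate 5-kinase, rose from 40.4 and 65.8 CPM to 221 and 231 CPM (2.09 ± 0.20). YMR084W, annotated as a putative glutamine-fructose-6-phosphate transaminase, rose from 48.8 and 83.9 CPM to 256 and 218 CPM (1.84 ± 0.30), and its counts were partly shared with another gene. YKL107W, a putative short-chain dehydrogenase/reductase, rose from 12.0 and 13.7 CPM to 41.5 and 44.7 CPM (1.75 ± 0.18). YJR096W, an aldo-keto reductase known to reduce xylose and arabinose, rose from 78.5 and 107 CPM to 276 and 286 CPM (1.60 ± 0.14, adjusted p = 5.38e-05).

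The other large rises were YCL048W-A (2.29 ± 0.21), YOL131W (2.27 ± 0.28), YIL059C (1.94 ± 0.18, overlapping another annotated gene), YOR019W (1.91 ± 0.14) and YPR078C (1.87 ± 0.21, with shared reads). Only 2 of the 5 systematic-name genes called lower reached a mean log2 CPM of 3. YGR035C fell from 11.9 and 16.2 CPM to 4.84 and 4.74 CPM (−1.54 ± 0.31), and YNL058C from 46.5 and 38.2 CPM to 17.8 and 24.3 CPM (−1.01 ± 0.19, but −0.84 without X replicate 1). Among identifiers without a RefSeq entry, YBR051W went from 13.2 ± 2.45 to 63.5 ± 2.15 CPM and YNL013C from 4.21 ± 0.796 to 26.0 ± 3.61 CPM. Their position was not compared with R64, and reads of a gene on the other strand may count in them.

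**Figure D2:**
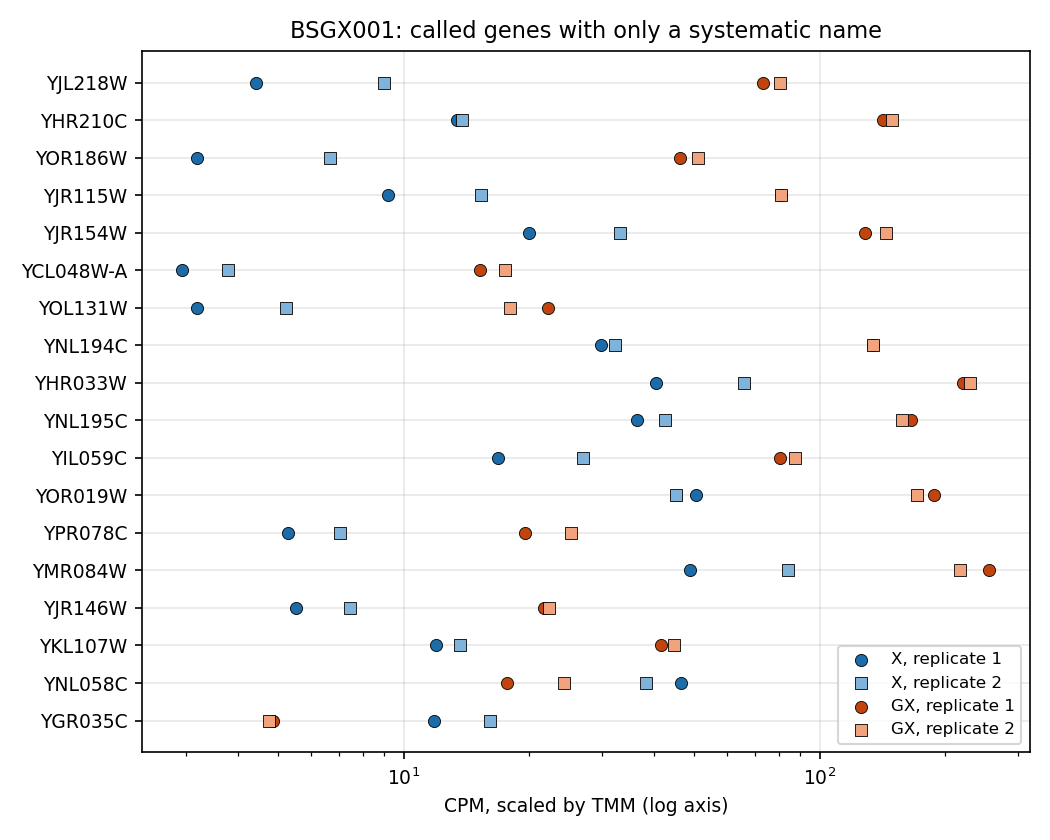
Level in each BSGX001 library of the 16 largest rises and the 2 falls among called genes with only a systematic name and a mean log2 CPM of 3 or more, on a log axis of TMM-scaled CPM. As in all called genes, the GX libraries lie beyond both X libraries in every gene shown. The X libraries lie far apart for YJL218W and YOR186W and almost together for YHR210C.

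The bases before these genes were searched for short sites of known regulators, in the 400 bases that begin 500 bases before the start codon, on both strands. The sites are given with their letters and as matches only, and the share of all 5465 windows is the background. AGGGG, the core of the stress response element to which Msn2 and Msn4 bind, was found in 29.5% of all windows, in 51.7% of 360 windows of genes called higher, in 17.7% of 113 windows of genes called lower, and in 47.7% of the 65 windows of systematic-name genes called higher. It occurred 2 or more times in 6.3% of all windows and in 22.2% of those of genes called higher. CCCCAC, a core of the Mig1 site, was found in 7.7% of all windows and in 15.8% and 3.5% of those of genes called higher and lower. It shares a run of C with CCCCT, the reverse complement of the stress element, but the same bases cannot spell both. GTAAACA, a site of the forkhead factors that drive mitotic genes, was found in 8.1% of all windows, 3.6% of those of genes called higher and 19.5% of those of genes called lower. TGACTC, the site of Gcn4, was found in 11.2%, 9.7% and 16.8%, CACGTG, the site of Pho4, in 6.0%, 6.7% and 10.6%, GATGAG, the PAC motif of ribosome biogenesis genes, in 23.1%, 17.2% and 18.6%, and ACGCGT, the MluI cell-cycle box, in 5.0%, 6.4% and 4.4%.

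Of the systematic-name genes called higher, 11 held 2 or more stress elements, and 5 of these, picked after their values were seen, are shown as examples of the site found in most windows of genes called higher. Windows can run into a neighbouring gene. Each stretch is R64 reference sequence from RefSeq on the strand of the gene, 5′ to 3′, with the stress element in capitals as AGGGG or its reverse complement CCCCT. The reference is of strain S288C, and bases of BSGX001 may differ.
YNL194C, chrXIV:273786-274065, minus strand: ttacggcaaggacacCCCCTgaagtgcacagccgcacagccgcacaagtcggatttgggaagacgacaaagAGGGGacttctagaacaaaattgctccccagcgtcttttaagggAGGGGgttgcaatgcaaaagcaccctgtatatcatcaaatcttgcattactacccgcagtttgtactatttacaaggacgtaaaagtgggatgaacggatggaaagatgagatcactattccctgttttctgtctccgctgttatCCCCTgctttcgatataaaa
YOR019W, chrXV:367838-367906, plus strand: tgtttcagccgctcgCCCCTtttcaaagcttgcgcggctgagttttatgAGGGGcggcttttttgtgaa
YMR084W, chrXIII:436412-436512, plus strand: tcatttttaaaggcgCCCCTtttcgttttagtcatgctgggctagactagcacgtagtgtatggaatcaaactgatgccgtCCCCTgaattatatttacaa
YKL107W, chrXI:235939-236025, plus strand: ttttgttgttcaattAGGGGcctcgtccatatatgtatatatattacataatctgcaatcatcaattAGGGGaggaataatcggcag
YGR127W, chrVII:746475-746697, plus strand: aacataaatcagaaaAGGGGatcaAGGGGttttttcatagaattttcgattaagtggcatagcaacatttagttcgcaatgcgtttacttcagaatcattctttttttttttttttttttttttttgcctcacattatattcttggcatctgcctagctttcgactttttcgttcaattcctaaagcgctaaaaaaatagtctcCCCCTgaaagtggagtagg

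YNL194C had 4 stress elements between 450 and 171 bases before its start codon, and YGR127W, which rose from 52.4 ± 10.8 to 134 ± 5.75 CPM (1.36 ± 0.16), had 3. The largest rises were not those with most matches: YHR210C and YOR186W had 1 match each in the window and YJL218W had 0. For comparison, the forkhead site is shown in capitals before the 3 genes with the largest falls among those that hold it.
HOF1, chrXIII:335083-335119, plus strand: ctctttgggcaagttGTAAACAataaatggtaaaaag
AIM20, chrIX:45734-45770, plus strand: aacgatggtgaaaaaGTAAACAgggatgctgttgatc
SWI5, chrIV:751022-751058, minus strand: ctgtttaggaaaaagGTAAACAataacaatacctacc

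HOF1, needed for cytokinesis, went from 47.2 and 49.4 CPM to 4.97 and 7.43 CPM. SWI5, a transcription factor of late mitosis, went from 107 and 103 CPM to 19.6 and 19.2 CPM. The mitotic cyclin gene CLB2 (58.4 and 43.5 CPM to 5.46 and 5.38 CPM) had no match to GTAAACA in its window. Nor had CLB1, CHS2, SRL1 and ALK1, also among the largest falls, while SFG1 had 2. HOF1 held 2 stress elements besides its forkhead site.

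Called genes lay next to each other in places. By R64 gene order, 115 of the genes called higher fell into 51 runs of 2 or more adjoining genes, 9 of them of 3 or more. Of the genes called lower, 10 fell into 5 runs of 2. More calls give more runs in any gene order, and the number to be met in this way was not worked out. The counts of runs are therefore not read as clustering. Within 30 kb of a chromosome end 39 of 250 genes (15.6%) were called higher and 5 (2.0%) lower, against 321 (6.15%) and 108 (2.07%) of 5216 genes farther in. The longest run held 5 genes of the left end of chromosome X. They were YJL218W, REE1, the isomaltase gene IMA5, the hexose transporter gene HXT8 and YJL213W. REE1, a regulator of the enolase gene ENO1, stood at 76.3 and 142 CPM in X and 1178 and 1419 CPM in GX (3.58 ± 0.29). IMA5 ran the other way between the X duplicates, with 47.7 CPM in replicate 1 and 22.5 CPM in replicate 2, and rose to 199 and 184 CPM. As in all 401 genes called higher, both X libraries lay below both GX libraries in these 5 genes. YJL218W and REE1 had 0 counts in the XH7 libraries.

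Runs of 4 held the maltose loci. On chromosome II these were PHO89, a sodium-coupled phosphate transporter gene (3.13 ± 0.43), MAL33, which encodes a maltose activator (1.19 ± 0.11), MAL31 and MAL32. On chromosome VII the run was BIO2, IMA1 (2.91 ± 0.21), the activator gene MAL13 (1.40 ± 0.10) and MAL11 (1.83 ± 0.19). IMA1, MAL32 and MAL33 had shared reads. Runs of 3 included the biotin genes BIO5, BIO4 and BIO3 on chromosome XIV and VHT1, GID10 and YGR067C on chromosome VII. The runs of genes called lower included the divergent histone pairs HTA2 and HTB2 (−1.85 and −1.66) and HHF1 and HHT1 (−1.01 and −1.06), of which the latter pair passed 2-fold in neither gene without X replicate 1 nor without GX replicate 2. YJR146W and HMS2 overlap, so their run may count some reads for both.

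**Figure D3:**
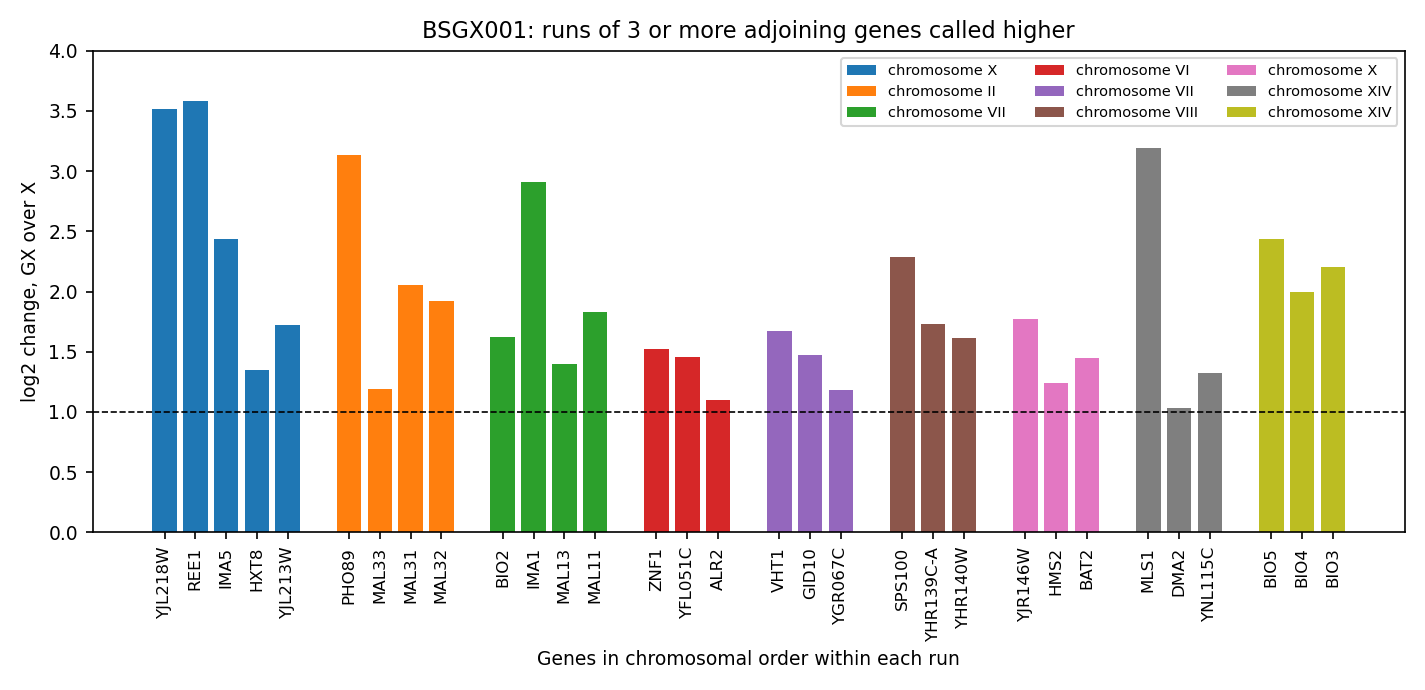
Log2 change of GX over X for each gene of the 9 runs of 3 or more adjoining genes called higher, in R64 chromosomal order within each run and coloured by run; the dashed line marks 2-fold. The run of 5 on chromosome X reaches 3.58 at REE1.

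Among regulators, 66 of 165 transcription factor genes rose, 23 fell and the other 76 missed the threshold, with 14 called higher and 5 lower and a median log2 change of 0.24 against −0.02 for all genes (0.13 under upper-quartile scaling). ACA1, which encodes a factor for growth on non-preferred carbon, went from 25.8 and 39.2 CPM to 137 and 148 CPM (2.13 ± 0.18, adjusted p = 3.98e-05). CAT8, the activator of gluconeogenic genes, went from 89.0 and 90.2 CPM to 310.4 and 309 CPM (1.79 ± 0.11), with nearly equal duplicates in each stage. The repressor genes of the Mig family rose too, with MIG3 at 1.72 ± 0.14, MIG2 at 0.88 ± 0.20 (not passing without GX replicate 1) and MIG1 at 0.83 ± 0.12. ZNF1, a regulator of respiratory and maltose genes, rose by 1.52 ± 0.12 and the zinc regulator gene ZAP1 by 1.65 ± 0.28. Of the 5 factors called lower, 4 act in the cell cycle or in the switch to filaments, namely SWI5, SFG1, YHP1 and NRM1. The homeobox repressor gene YHP1 fell by 1.33 ± 0.19, from 62.2 ± 0.959 to 24.6 ± 0.789 CPM. NRM1, a co-repressor of G1 genes, went from 22.3 ± 3.21 to 10.3 ± 1.38 CPM (−1.11 ± 0.21, −0.94 without X replicate 1). The number of factors that fell was 15 without either GX library.

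Of 147 genes of protein kinases and phosphatases, 47 rose, 28 fell and 72 did not pass, and the median of 0.10 became −0.01 under upper-quartile scaling. The risen members included PRR2, a kinase gene of the pheromone pathway (17.99 and 21.6 CPM to 70.7 and 78.2 CPM, 1.91 ± 0.17), and PTK1, a kinase gene for polyamine uptake (1.57 ± 0.11). RCK1, an oxidative stress kinase gene, had the largest rise of the list at the lowest level (0.571 ± 0.114 to 2.53 ± 0.77 CPM), and it was not called without X replicate 1 or GX replicate 2. The fallen members were led by ALK1 (−2.15 ± 0.18), the polo kinase gene CDC5 (−1.41 ± 0.13) and KIN3 (−1.34 ± 0.15), which act in mitosis. The counts of the list fell to 27 and 30 rises without GX replicates 1 and 2, and to 15, 15 and 17 falls without GX replicate 1, GX replicate 2 and X replicate 1. Over all genes the counts moved likewise, to 873 rises and 809 falls without GX replicate 1, to 883 and 881 without GX replicate 2 and to 966 falls without X replicate 1. For the other lists such counts are given where they moved by more than 1.5 times, and counts of 7 or fewer are not read.

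Among 41 partners of cAMP, TOR and glucose signalling, 17 rose, 3 fell and 21 did not pass (11 rose without GX replicate 1). The 3 genes called higher were 7.3% of the list, near the 6.77% of all genes tested. They act on Snf1, on Ras and on cAMP. REG2, a regulatory subunit gene of the phosphatase Glc7 that acts against Snf1, went from 93.9 and 82.5 CPM to 383 and 398 CPM (2.15 ± 0.12, adjusted p = 4.99e-06). IRA2, which encodes a GTPase-activating protein that turns Ras off, went from 73.2 and 85.6 CPM to 219 and 243 CPM (1.54 ± 0.15). PDE1, which encodes a phosphodiesterase that breaks down cAMP, went from 81.4 and 97.8 CPM to 229 and 237 CPM (1.38 ± 0.11). Their paralogs moved less, with REG1 at 0.31 ± 0.10 and IRA1 at 0.40 ± 0.10. The change of IRA1 did not pass without GX replicate 1, and that of REG1 passed only in the fit without X replicate 1 among those that left out a library. RAS1 fell by 0.70 ± 0.10.

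Ubiquitin ligases and arrestin adaptors, which mark proteins and transporters for breakdown, rose in 31 of 66 genes and fell in 3, with 9 called higher and a median of 0.28 (0.17 under upper-quartile scaling). Between 24 and 29 rose when 1 BSGX001 library was left out. The list held members of the GID ligase, which removes gluconeogenic enzymes when glucose returns. GID8, its core subunit gene, went from 165 and 163 CPM to 403 and 390.0 CPM (1.28 ± 0.10), GID11, a substrate receptor gene, from 113 and 127 CPM to 299 and 317 CPM (1.36 ± 0.12), and GID10, another receptor gene, from 9.86 ± 3.56 to 27.3 ± 3.28 CPM (1.47 ± 0.23). SAF1, an F-box gene whose product is known for a role on entry into quiescence, had nearly equal duplicates (63.5 and 63.2 CPM to 179 and 185 CPM, 1.52 ± 0.11), and MET30, the F-box gene of sulphur control, rose by 1.11 ± 0.11.

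Among 40 aldo-keto reductases and side dehydrogenases, 21 rose, 4 fell and 15 did not pass, with 6 called higher and a median of 0.45 (12 rose without GX replicate 2). Besides YKL107W and YJR096W, the called genes included AAD10, an aryl-alcohol dehydrogenase gene with shared reads (1.98 ± 0.16), SPS19, the peroxisomal dienoyl-CoA reductase gene (59.5 ± 4.25 to 169 ± 3.85 CPM), and BDH2 (1.20 ± 0.09). XYL2, which encodes the native xylitol dehydrogenase, went from 33.8 and 35.4 CPM to 64.5 and 67.8 CPM (0.93 ± 0.10, adjusted p = 1.62e-04), just under the 2-fold limit. GRE3, the aldose reductase locus that carries the inserted pathway genes, still had 335 to 492 counts per library, and its change of −0.37 ± 0.13 was lost in each of 3 fits, without X replicate 1, GX replicate 1 or GX replicate 2. Of 34 genes for glutathione, thioredoxin and glutaredoxin, 15 rose and 5 fell (8 and 9 rose without GX replicate 2 and X replicate 1). The called one was SRX1, the sulfiredoxin gene that repairs oxidised peroxiredoxin (3.92 and 6.12 CPM to 19.9 and 21.8 CPM, 2.06 ± 0.26). Of 51 genes for NAD, pyridoxal, riboflavin, folate and pantothenate, 1 was called (2.0%, against 8.8% of all genes tested). It was CAB2, for a step of coenzyme A synthesis (108 and 152 CPM to 410.4 and 429 CPM, 1.69 ± 0.15).

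In lipid metabolism, FAA2 rose by 1.58 ± 0.16 and FAA1 by 1.46 ± 0.23, both encoding acyl-CoA synthetases, and ETR1, of mitochondrial fatty acid synthesis, by 1.23 ± 0.26. The elongase genes ELO2 and ELO3 fell by 1.15 ± 0.11 and 1.15 ± 0.19, the latter by 0.94 without X replicate 1. Of the 25 genes of that list, 4 rose, 9 fell and 12 did not pass (5 fell without either GX library). Of 57 phospholipid genes 12 rose and 16 fell (9 without GX replicate 2). The shares of phospholipid genes that rose and fell, 21.1% and 28.1%, were near the 23% and 24.7% of all genes. GIT1, which encodes the glycerophosphoinositol permease, went from 19.2 and 48.6 CPM to 282 and 282 CPM (3.06 ± 0.40). PAH1, the phosphatidate phosphatase gene that turns phospholipid precursor into storage fat, went from 109 ± 4.5 to 252 ± 3.57 CPM (1.22 ± 0.09).

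Genes of the secretory pathway mostly fell or did not pass. Of 60 genes for translocation into the endoplasmic reticulum and for vesicle coats, 38 fell, 1 rose and 21 did not pass, with a median of −0.39 (−0.50 under upper-quartile scaling). The changes were small, and the 1 call was ERP2, a cargo receptor gene of coated vesicles, at −1.02 ± 0.11 (−0.93 without X replicate 2). SRP21, of the signal recognition particle, fell by 0.89 ± 0.11 and SEC22, a vesicle fusion gene, by 0.80 ± 0.10. Of 69 genes for glycosylation and GPI anchors, 34 fell, 5 rose and 30 did not pass. ALG5, for the glucose donor of N-glycans, fell by 1.23 ± 0.20 and VRG4, the Golgi GDP-mannose transporter gene, by 1.15 ± 0.20 (0.81 without X replicate 1), while OCH1, which starts the outer mannose chain, rose by 0.68 ± 0.10. Without GX replicates 1 and 2 the falls numbered 19 and 20 in the first list and 22 and 19 in the second. Of the whole vacuole list 19.5% rose and 26.8% fell, near the 23% and 24.7% of all genes. The list was cut into proton pump genes and other members after it had been counted as a whole. These parts are described only. Of 19 subunits and assembly factors of the proton pump 11 fell and 8 did not pass. Of 22 other members, mostly hydrolases, 8 rose and 14 did not pass. Over the whole vacuole list the falls numbered 5 and 7 without GX replicates 1 and 2. VMA7 of the pump fell by 0.92 ± 0.11. The protease gene PRB1 rose by 1.34 ± 0.15 and ATH1, for acid trehalase, by 1.39 ± 0.12.

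Transporters of ions and small acids rose in 20 of 42 genes and fell in 7, with 8 called higher. ADY2, for acetate uptake and ammonium export, went from 7.22 and 7.69 CPM to 50.3 and 48.6 CPM (2.73 ± 0.30), JEN1, for lactate and pyruvate, from 133 and 128 CPM to 559 and 528 CPM (2.06 ± 0.16), and AQY1, a spore-associated aquaporin gene, from 36.3 ± 1.06 to 119 ± 4.26 CPM (1.72 ± 0.11). Of 48 multidrug and ABC transporter genes 17 rose and 6 fell, with 7 called higher (10 rose without GX replicate 1). PXA1 and PXA2, the subunit genes of the peroxisomal fatty acid importer, rose by 2.07 ± 0.21 and 1.26 ± 0.18. PDR15 rose by 1.32 ± 0.19, while the main drug pump gene PDR5 fell by 0.83 ± 0.15. Of 37 mitochondrial carrier genes 9 rose and 9 fell, 24.3% each, near the 23% and 24.7% of all genes. Called genes numbered 4 in each direction, in all 21.6% of the list against 8.8% of all genes tested. Of carrier genes called higher, SFC1 (1.06) lost its call without GX replicate 1 or X replicate 2. MRS3 (1.05) lost it without X replicate 1 or GX replicate 2. MPC3, the respiratory subunit gene of the pyruvate carrier, rose from 48.6 and 51.7 CPM to 189 and 187 CPM (1.91 ± 0.12). GGC1, for GTP and GDP exchange, and CTP1, for citrate, fell by 1.31 ± 0.21 and 1.25 ± 0.16, and by 0.98 and 0.95 without X replicate 1.

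In several families the relatives moved in opposite directions. PMA1, the main plasma membrane proton pump gene, fell from 1829 and 1799 CPM to 989 and 911 CPM (−0.93 ± 0.13), while its paralog PMA2 rose from 31.8 and 46.0 CPM to 147 and 151 CPM (1.94 ± 0.20). ODC2 and ODC1 both encode oxodicarboxylate carriers. ODC2 fell from 485 and 345 CPM to 143 and 144 CPM (−1.53 ± 0.18), and ODC1 rose from 126 ± 10.3 to 220.3 ± 13.4 CPM (0.81 ± 0.16), so that ODC1 became the higher of the pair. Of the ADP/ATP carrier genes, the anaerobic AAC3 fell from 4.33 ± 1.15 to 1.57 ± 0.232 CPM (−1.45 ± 0.32) and AAC1 rose from 112 ± 16.6 to 213 ± 16.2 CPM (0.93 ± 0.17). The thioredoxin genes TRX2 and TRX1 changed by 0.72 ± 0.12 and −0.58 ± 0.20, the Ran genes GSP2 and GSP1 by 0.76 ± 0.24 and −0.37 ± 0.12, and the pseudouridine synthase genes PUS2 and PUS1 by 0.58 ± 0.20 and −0.84 ± 0.15. The change of TRX1 passed in no fit that left out a BSGX001 library. Of those fits, the changes of GSP1, GSP2 and PUS2 passed only in the one without X replicate 2. The change of GSP2 was 0.43 without X replicate 1. These pairs were chosen after their values were seen.

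Most changes of genes that handle the nucleus and its chromosomes were too small to be called. Of 52 nuclear pore and karyopherin genes 29 fell and 4 rose (median −0.32), with NUP120 of the pore scaffold at −0.75 ± 0.10. The fallen ones numbered 14, 13 and 14 without GX replicate 1, GX replicate 2 and X replicate 1. Of 67 kinetochore and spindle genes 32 fell and 1, CTF19, rose (median −0.38), and the call was SPC97 of the microtubule nucleation complex (39.0 ± 2.83 to 16.8 ± 1.5 CPM, −1.21 ± 0.17). Of 58 tRNA modification genes 25 fell and 1, PUS2, rose (median −0.25). Of 66 genes for polarity, septins and budding 31 fell and 4 rose. BUD4, an axial bud site gene, went from 109 and 90.2 CPM to 32.8 and 30.9 CPM (−1.65 ± 0.13). Without GX replicate 1, GX replicate 2 and X replicate 1 in turn, the falls numbered 19, 22 and 20 for the kinetochore, 14, 15 and 16 for tRNA modification and 15, 16 and 20 for polarity. Of 71 DNA repair and checkpoint genes 20 rose and 6 fell, or 13 and 12 under upper-quartile scaling (9 rose without GX replicate 2, 11 without GX replicate 1 and 13 without X replicate 1). The end-joining genes YKU80 and YKU70 rose by 0.76 ± 0.14 and 0.64 ± 0.13. The cohesin subunit of mitosis, MCD1, changed by −1.11 ± 0.21 (−0.80 without X replicate 1), and its meiotic counterpart REC8 by 1.45 ± 0.15.

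**Figure D4:**
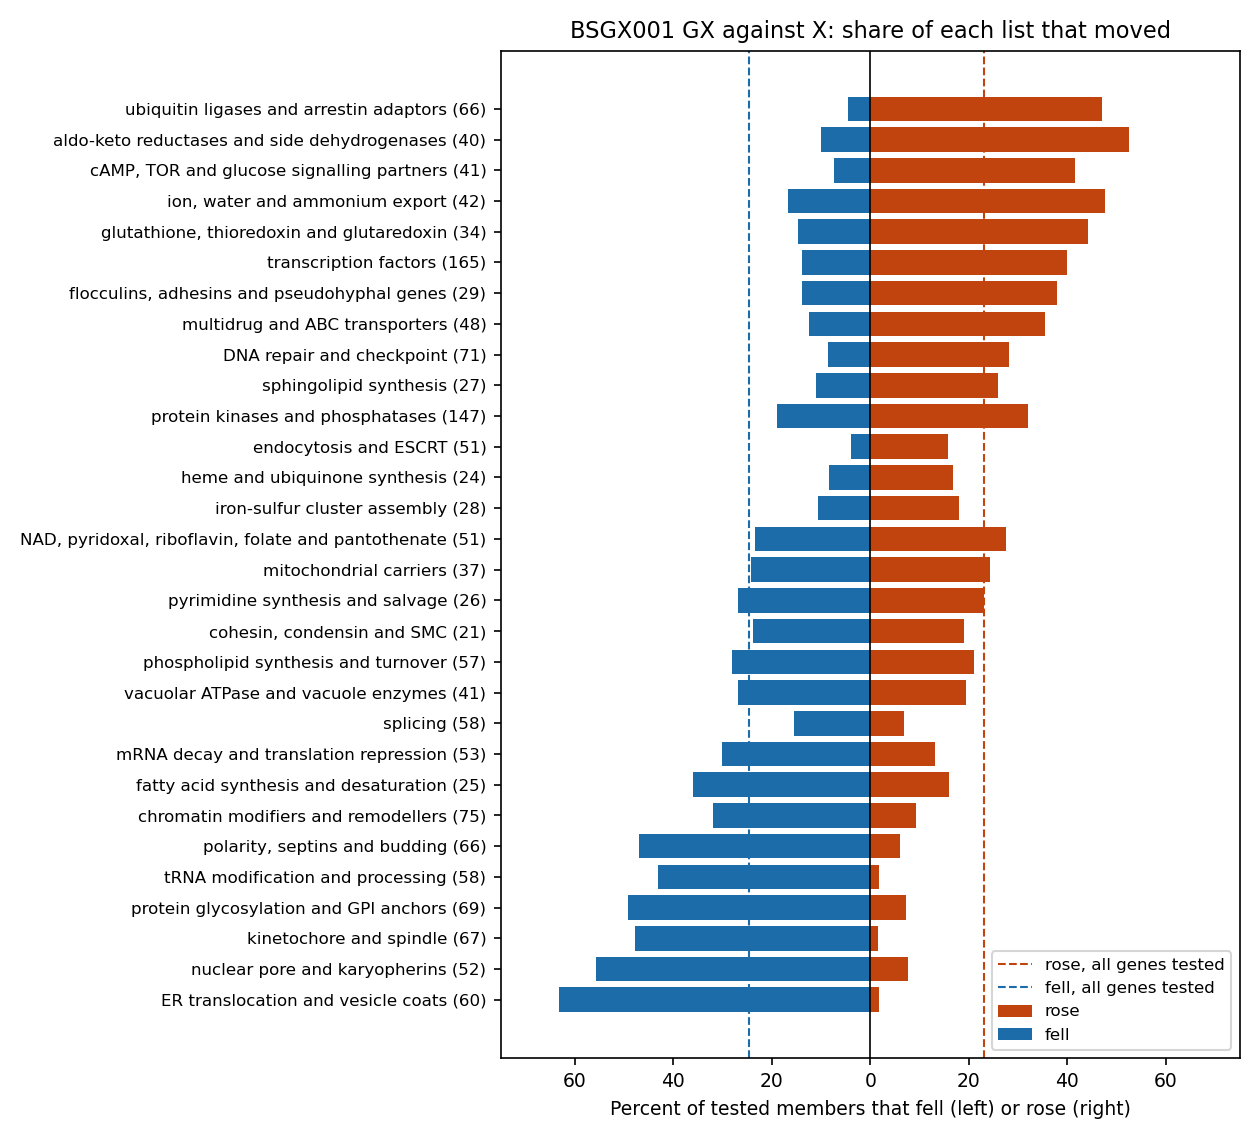
Percent of tested members that rose (right, red) or fell (left, blue) at an adjusted p of 0.05 or less in each list of 20 or more tested genes, with the number tested in brackets; dashed lines mark the shares of all 5921 genes, 23% and 24.7%. Aldo-keto reductases, ubiquitin ligases and signalling partners lie at the rising end, and vesicle coats, kinetochore and nuclear pore genes at the falling end.

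Effect sizes depended on which X library was used. The calls were made on these same libraries. Separate stages and a kept direction in called genes were thus largely set in advance and are no separate support. In all 521 called genes both GX libraries lay beyond both X libraries, none changed direction in a fit without 1 BSGX001 library, and 362 (69.5%) were called in all 4 such fits, 299 of the 401 higher and 63 of the 120 lower. Without X replicate 1, 393 of the 521 were still called, and 494 passed at any fold. Without X replicate 2 the numbers were 491 and 508. The median size of the change was 1.39 with all libraries, 1.27 without X replicate 1 and 1.57 without X replicate 2, and 403 of the 521 changes were smaller without X replicate 1 while 113 were smaller without X replicate 2. In the fit without X replicate 1, 353 genes in all were called higher and 73 lower, and without X replicate 2 these were 499 and 212. Rises of 4-fold or more numbered 70 without X replicate 1 and 137 without X replicate 2, against 83 with both.

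**Figure D5:**
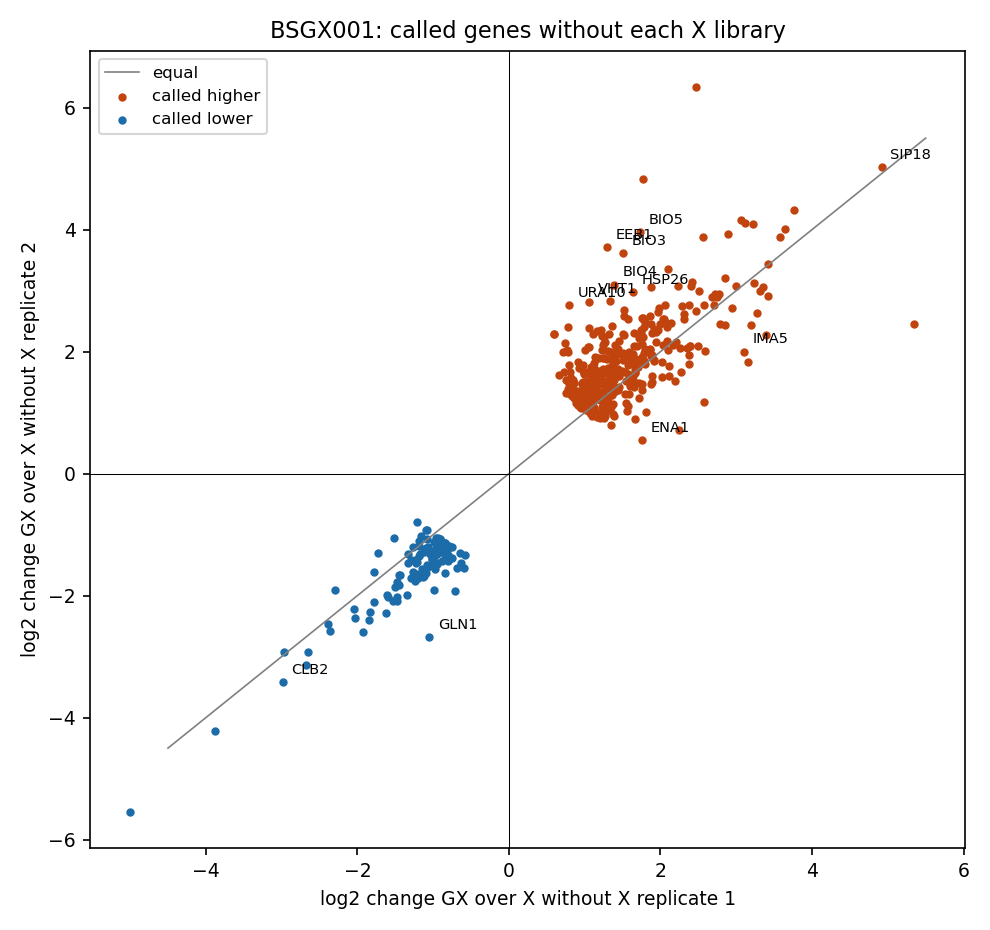
Log2 change of GX over X in the fit without X replicate 1 (x axis) and in the fit without X replicate 2 (y axis) for the 521 called genes, one point per gene; the line marks equal changes. Points called higher lie mostly above the line, the biotin genes and EEB1 far above it, IMA5 and ENA1 below it, and no point changes sign.

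Among called genes with a mean log2 CPM of 3 or more, biotin genes were some of those that differed most between these fits. Biotin is a cofactor of carboxylases such as Pyc1, and yeast takes it up through Vht1 or makes it from precursors with Bio5, Bio3, Bio4 and Bio2. VHT1 stood at 238 and 819 CPM in the X libraries and at 1760.0 and 1606 CPM in the GX libraries. Its change was 1.67 ± 0.44 with both X libraries, 1.06 without X replicate 1 and 2.82 without X replicate 2, and it was not called without GX replicate 1. BIO5 stood at 24.9 and 119 CPM in X and at 374 and 402 CPM in GX, with changes of 1.73 and 3.96 in the same 2 fits. BIO3 stood at 34.8 and 152 CPM in X and 396 and 457 CPM in GX, BIO4 at 24.0 and 79.5 CPM and 186 and 226 CPM, and BIO2 at 144 and 329 CPM and 679 and 775 CPM. All 5 lay higher in X replicate 2 than in X replicate 1 and higher still in both GX libraries. The 4 BIO genes were called in each fit without 1 library.

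Among the others, EEB1, which makes ethyl esters of fatty acids, stood at 49.3 and 267 CPM in X and at 659 and 636 CPM in GX. Its rise of 2.04 ± 0.66 (adjusted p = 0.0298) was 1.30 without X replicate 1 and 3.71 without X replicate 2, and of the fits without 1 library it passed only in that without X replicate 2. URA10, the minor orotate phosphoribosyltransferase gene (86.0 and 342 CPM to 581 and 589 CPM), went from 1.45 ± 0.47 to 0.80 and 2.76 in those fits, and did not pass without either GX library. The copper transporter gene CTR3 went from 55.6 and 174 CPM to 298 and 292 CPM. The siderophore transporter gene ARN1 went from 96.1 and 256 CPM to 472 and 371 CPM. Neither was called without X replicate 1, at 0.78 and 0.74, nor without GX replicate 1. CTR3 was not called without GX replicate 2 either. RTC4 was called in every fit, at 1.06 and 2.40. Of genes with the opposite order, glutamine synthetase GLN1 stood at 2551 CPM in X replicate 1 and 832 CPM in X replicate 2, against 381 and 412 CPM in GX. The nitrogen genes GDH1 and ASN1 shared that order, with 1949 and 916 CPM and 671 and 351 CPM in X, and their falls passed only in the fits with X replicate 1 and both GX libraries. ENA1, the sodium pump gene, rose by 1.02 ± 0.29 with both X libraries, 1.75 without replicate 1 and 0.55, under the 2-fold limit, without replicate 2, and did not pass without either GX library. INO1, which encodes inositol phosphate synthase, had no stable direction: it stood at 1883 and 8533 CPM in X and at 4066 and 4031 CPM in GX, between the X libraries, and its change of −0.36 ± 0.53 (adjusted p = 0.593) was −1.06 without X replicate 1 and 1.10 without X replicate 2. The siderophore-retaining wall genes FIT2 and FIT3 did not pass (adjusted p = 0.181 and 0.14), with X libraries at 217 and 1122 CPM and at 139 and 867 CPM. What set the X fermentations apart was not tested.

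The change of a gene was compared with its change in XH7 by the interaction term of the same fit. It passed for 1750 genes (29.6%), 976 and 992 without BSGX001 GX replicates 1 and 2 and 1111 without XH7 X replicate 2. Of the 401 genes called higher in BSGX001, the median change was 1.45 there and 0.46 in XH7, 104 were called higher in XH7 too, and the difference passed for 233. Of the 120 called lower the medians were −1.23 and −1.11, 69 were called lower in XH7 too, and the difference passed for 41. Of the 65 systematic-name genes called higher, 32 rose in XH7, 2 fell, and the difference passed for 30. These sets were chosen by their change in BSGX001, which is also a term of the difference. Smaller changes in XH7 and passing differences are thus partly set by that choice. The shares of all genes that moved in XH7 are not given here, so the XH7 counts have no background. Among the genes called higher in BSGX001, 11 were called lower in XH7. These 11 were picked by their opposite calls and a passing difference. That their differences are large and pass was thus set in advance and is no separate support. One of the 11 was systematic, YMR084W, at 1.84 ± 0.30 in BSGX001 and −1.47 in XH7. Another was NRS1, which encodes a short regulator of cell cycle start under poor nitrogen, at 14.2 and 22.9 CPM in X and 123 and 117 CPM in GX of BSGX001 (2.69 ± 0.18) and −1.10 in XH7 (difference −3.80, adjusted p = 1.84e-04 by edgeR). The sulfite pump gene SSU1 changed by 1.21 ± 0.18 and −2.06, and YRO2, for a membrane protein related to Hsp30, by 1.60 ± 0.23 and −1.36. The strains differ in engineered alleles and, by the study's text, in background and ploidy, whereas the labels give both the same parent. Which of these goes with the differences cannot be told apart here.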

How the data were processed

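RNA from 8 fermentation samples was sequenced, and 4 of them, of strain BSGX001, carry the results. The authors deposited a table per sample with expected counts and FPKM values per gene. The aligner and the counter were not given in the sources used here. R64, the build, comes from the submitters' processing notes. FPKM values as deposited are scaled by depth and gene length and served only in an alternative test. Tables of the authors' own comparisons hold fold changes and p-values and were not used. A few emptied lines of each file are not reported here.

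Expected counts were rounded to whole numbers. Genes were filtered by filterByExpr (minimum count 10), scaled by TMM and tested with edgeR 4.0.16 in R 4.3.3 (quasi-likelihood F test, 4 groups of 2, Benjamini-Hochberg adjustment over all genes tested). The fit was tested on simulated data. Names came from RefSeq R64, which matched 5591 of 6170 identifiers, and 95.46% of those had the same coding length. Fractional counts, found in 238 genes, were read as shared reads, and 155 genes overlap another. Use of strand in counting is not stated either.

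Genes to name were taken from the largest calls with a mean log2 CPM of 3 or more, the largest of each of 33 lists and of the genes with a systematic name only, the 10 calls most dependent on an X library, and the 10 largest gains and losses in CPM, and not all of these are printed. Other genes named were chosen after their values were seen. The comparison and all lists were chosen with earlier results of these data known. Alternatives were other scalings, filters, DESeq2 1.42.0, limma 3.58.1 on log2 FPKM with pseudocounts of 1 and 0.1, BSGX001 samples alone, a replicate block, and leaving out each library. The floor of 3 counts covers counting error only.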

Additional observations from a re-analysis of the deposited data

Results flagged for a closer look

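The change between the stages differed between the strains, by the interaction test of edgeR, for 1750 genes. Of the genes called higher in BSGX001, 11 were called lower in XH7. They were picked by these opposite calls and a passing difference, so large differences were set in advance. Their differences, XH7 minus BSGX001 on the log2 scale, were −3.78 for NDE2, −3.80 for NRS1, −3.26 for SSU1, −4.89 for HSP30, −2.96 for YRO2, −4.97 for HSP26, −3.31 for YMR084W, −2.79 for BTN2, −3.04 for GAD1, −2.26 for DCS2 and −2.55 for HAB1. Of these, BTN2 did not pass in BSGX001 without X replicate 1 or without either GX library, and DCS2 was under 2-fold without X replicate 1 (0.84). The cause of the differences was not tested, and the strains differ in engineered alleles and, by the study's text but not by the labels, in background.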

How the results depend on the processing

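With 2 fermentations a stage, the wide spread of the X duplicates leaves the size of many changes uncertain. The calls numbered 368 to 414 higher and 99 to 125 lower under the other scalings, filters and tests, except upper-quartile scaling with 326 and 215. Without 1 library the calls ranged from 353 to 499 higher and from 73 (without X replicate 1) to 212 (without X replicate 2) lower, and the genes whose change differed between the strains from 976 (without BSGX001 GX replicate 1) to 1992 (without XH7 GX replicate 1), with 2210 under scaling to library totals. INO1 reversed, from −0.36 to 0.03 under limma on log2 FPKM with either pseudocount and to 1.10 without X replicate 2, with −1.06 without X replicate 1. Of 238 genes marked for naming, of which not all are printed, 38 lost their call or their pass without X replicate 1, 8 without X replicate 2, and 27 and 26 without GX replicates 1 and 2. Upper-quartile scaling lost 16. The fit with a replicate block gave 403 higher and 116 lower calls, and 3 of the 238 genes lost their call or pass. The correlations of same-numbered deviations between groups ran from −0.28 to 0.27. With 2 fermentations a stage they cannot show whether same-numbered samples shared a batch. Of the list counts under single-library omissions, 117 of 264 moved by more than 1.5 times. The cause was not tested.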
